A study of Mus musculus with 13 samples.

Results

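Immediate early genes were followed across neurons of the mouse retrosplenial cortex, a midline cortical area. The set held 9 genes chosen by name: the AP-1 subunits Fos, Fosb and Junb, the zinc finger factors Egr1, Egr2 and Egr4, the basic helix-loop-helix factor Npas4, the orphan nuclear receptor Nr4a1, and Arc, which encodes a protein of the postsynaptic density. All 9 had a row among the 15114 genes of the cell table and among the 32285 genes of the spot table.

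Immediate early genes are transcribed within minutes of strong synaptic input or growth factor signals, without new protein synthesis. Calcium entry and kinase cascades act on factors already bound at their promoters, such as CREB at cyclic AMP response elements (CRE) and SRF at serum response elements. Most of the products are transcription factors that act on a later set of genes, whereas Arc takes part in removal of glutamate receptors from synapses. They are widely used as markers of recently active neurons, and tissue handling and cell dissociation can induce them as well.

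The dissociated neurons came from 11 samples of 3 wild-type B6 mice (samples 1 to 3 from animal 1, samples 11 to 14 from animal 2, samples 15 to 18 from animal 3). Cells had been microdissected at an anterior, a medium and a posterior level of acute slices and pooled over slices, and each cell's name gave its level. The second assay counted RNA on spots of 2 wild-type brain sections of 10 µm, called S4 and S8, and a spot can hold several cells. No group was treated: all cells and both sections were wild type, and no age and no behaviour of the animals was stated.

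The cell table held 765 cells with a median of 138331 counts, and the medians of the animals were 65843, 132797 and 185995 counts for animals 1, 2 and 3. Sections S4 and S8 held 1022 and 951 spots with medians of 8266.5 and 6705 counts, and 162 barcodes occurred in both sections. The label of neurons was checked on markers: 98.8% of cells had a count of Slc17a7, the vesicular glutamate transporter of cortical excitatory neurons, and 6.01% had a count of Gad1, the GABA-synthesising enzyme. Summed levels of the 3 of 4 measured GABAergic markers lay between 0 and 7.86 counts per 1000000 counts (CPM) in every class and animal. Myelin transcripts were more common, and 63.8% of cells had a count of Mbp.

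Cells were placed in classes by 4 marker genes each and are named here by a leading gene: 214 cells in the Calb1 class, 109 in Tnnc2, 64 in Il1rapl2, 152 in C1ql2 (with markers of layer 5 extratelencephalic neurons), 41 in Osr1 and 35 in Syt6 (with markers of layer 6 corticothalamic neurons). Another 11 cells fell in a Moxd1 class with layer 6b markers, and 139 cells stayed unassigned because no score led by 0.1. Of all cells, 109 lay within 0.05 of that limit, so a class is a range of a score. None of the 9 genes took part in drawing classes or spot groups.

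RefSeq windows of 250 bases before the annotated start (assembly GRCm38.p6) were found for 7 of the 9 genes, the exceptions being Arc and Egr1. They are shown because the 9 genes rose and fell together from cell to cell, and because the half-site of the CRE, TGACG on either strand, occurred in a window of 7 of these 7 genes. Counted by gene in the same way, 19.8% of the 27025 genes with a window had it. Across all 32851 windows of the same length 17.8% held it, and 3.9% held it at least 2 times. Windows of 5 genes follow, each written 5′ to 3′ with half-sites in capitals, TGACG on the strand shown and CGTCA where it lies on the other strand.
Fos (chr12:85473640-85473889, plus strand): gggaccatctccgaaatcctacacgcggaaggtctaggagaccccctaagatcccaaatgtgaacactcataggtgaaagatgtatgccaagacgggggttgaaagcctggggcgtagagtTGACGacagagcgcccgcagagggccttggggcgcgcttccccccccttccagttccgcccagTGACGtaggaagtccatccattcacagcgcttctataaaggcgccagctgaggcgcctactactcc
Npas4 (chr19:4989972-4990221, minus strand): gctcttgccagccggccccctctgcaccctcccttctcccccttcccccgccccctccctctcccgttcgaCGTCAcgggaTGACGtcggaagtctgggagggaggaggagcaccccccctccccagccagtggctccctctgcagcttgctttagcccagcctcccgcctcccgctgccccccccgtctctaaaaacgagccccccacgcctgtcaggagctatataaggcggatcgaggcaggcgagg
Nr4a1 (chr15:101266596-101266845, plus strand): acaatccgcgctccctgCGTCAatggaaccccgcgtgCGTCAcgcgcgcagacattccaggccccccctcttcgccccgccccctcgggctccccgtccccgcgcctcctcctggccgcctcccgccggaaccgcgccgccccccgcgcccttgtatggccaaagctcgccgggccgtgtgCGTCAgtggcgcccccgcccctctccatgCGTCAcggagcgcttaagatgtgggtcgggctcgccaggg
Egr4 (chr6:85513590-85513839, minus strand): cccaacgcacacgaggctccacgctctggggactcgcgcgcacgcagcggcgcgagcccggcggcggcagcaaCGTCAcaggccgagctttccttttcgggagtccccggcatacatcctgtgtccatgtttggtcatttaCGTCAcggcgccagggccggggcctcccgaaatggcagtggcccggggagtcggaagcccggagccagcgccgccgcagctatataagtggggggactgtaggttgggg
Egr2 (chr10:67537619-67537868, plus strand): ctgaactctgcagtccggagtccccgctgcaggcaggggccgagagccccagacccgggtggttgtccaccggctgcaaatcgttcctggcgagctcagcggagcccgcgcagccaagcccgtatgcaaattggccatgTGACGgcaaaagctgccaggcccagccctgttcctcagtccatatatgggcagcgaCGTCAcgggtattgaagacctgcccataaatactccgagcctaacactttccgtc
The Nr4a1 window held 4 half-sites, with first bases 233, 213, 69 and 40 bases before the start, and the other 4 windows held 2 each. Fosb and Junb had 1 each in theirs. Egr2 has 5 windows in the table, of which 3 held the half-site, and the first of those is shown. The full palindrome TGACGTCA, which contains the half-site, was in 1.55% of all windows and in none of these genes, and a CArG box (read on the strand shown), the core of the serum response element, was in 1.47% of all windows and among these genes only in Egr2. The sequence TATAAA lay in the Fos window, against 7.59% of all windows read on the sense strand. GC content ran from 54% to 74.4% in the windows of these genes, against a median of 52.4% over all windows. Its part in the matches was not tested. Such matches describe letters and show no binding.

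Detection was compared after every cell had been thinned to 50000 counts, which kept 704 cells and left out 61, of which 48 were from animal 1. Egr1 was counted in 89.1% of cells and Junb in 88.5%. Arc followed with 65.3%, Nr4a1 with 62.4%, Egr4 with 49.0% and Fos with 48.0%. Npas4 (31.4%), Fosb (17.2%) and Egr2 (5.26%) were counted in the fewest cells. Without thinning the shares were higher, at 92.0% for Egr1, 69.9% for Arc, 52.0% for Fos, 39.9% for Npas4 and 6.41% for Egr2 over all 765 cells. A missing count does not show that a cell lacks the transcript, and free RNA can give a count to a cell that lacks it.

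Counts were uneven between cells. Cells of all animals were pooled for these shares, and the part of differences between animals in them was not tested. The 70 cells with most Arc held 48.8% of all thinned Arc counts, whereas the median over 790 genes detected in a like share of cells was 38.2%. For Junb, the same number of cells held 41.7% of counts, against 28.1% for its 624 peers, and for Npas4 71.7% against 62.7% for 1353 peers. In percentage points, Fos (53.6% against 47.7%) and Egr4 (55.2% against 47.1%) lay closer to theirs. Egr1 was spread almost like its peers, with 29.9% against 28.0%. The median cell held counts of 5 of the 9 genes. At least 7 of them were found in 122 cells, all 9 in 9 cells and none in 4 cells.

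Levels in each class were read from counts summed over the cells of an animal, in CPM, with the animal as the replicate (mean ± SD, n = 3 animals). Levels are compared for the same gene between classes and never between genes, since length was not taken into account. Calb1, Tnnc2, C1ql2 and Osr1 held at least 10 cells in every animal and entered the test, an edgeR quasi-likelihood F test across all genes with the animal as a block. Il1rapl2 and Syt6, with 8 and 9 cells in animal 1, joined in a second fit that admitted sums of at least 5 cells and was added after the values were seen. In the first fit 16.8% of 13406 genes differed between the 4 classes at an adjusted p under 0.05, and so did 3 of the 9 immediate early genes, Egr1, Egr2 and Junb. In the second fit 15.9% of 12433 genes differed between 6 classes, and 6 of the 9 did: the same 3 with Arc, Fos and Npas4.

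**Figure D1:**
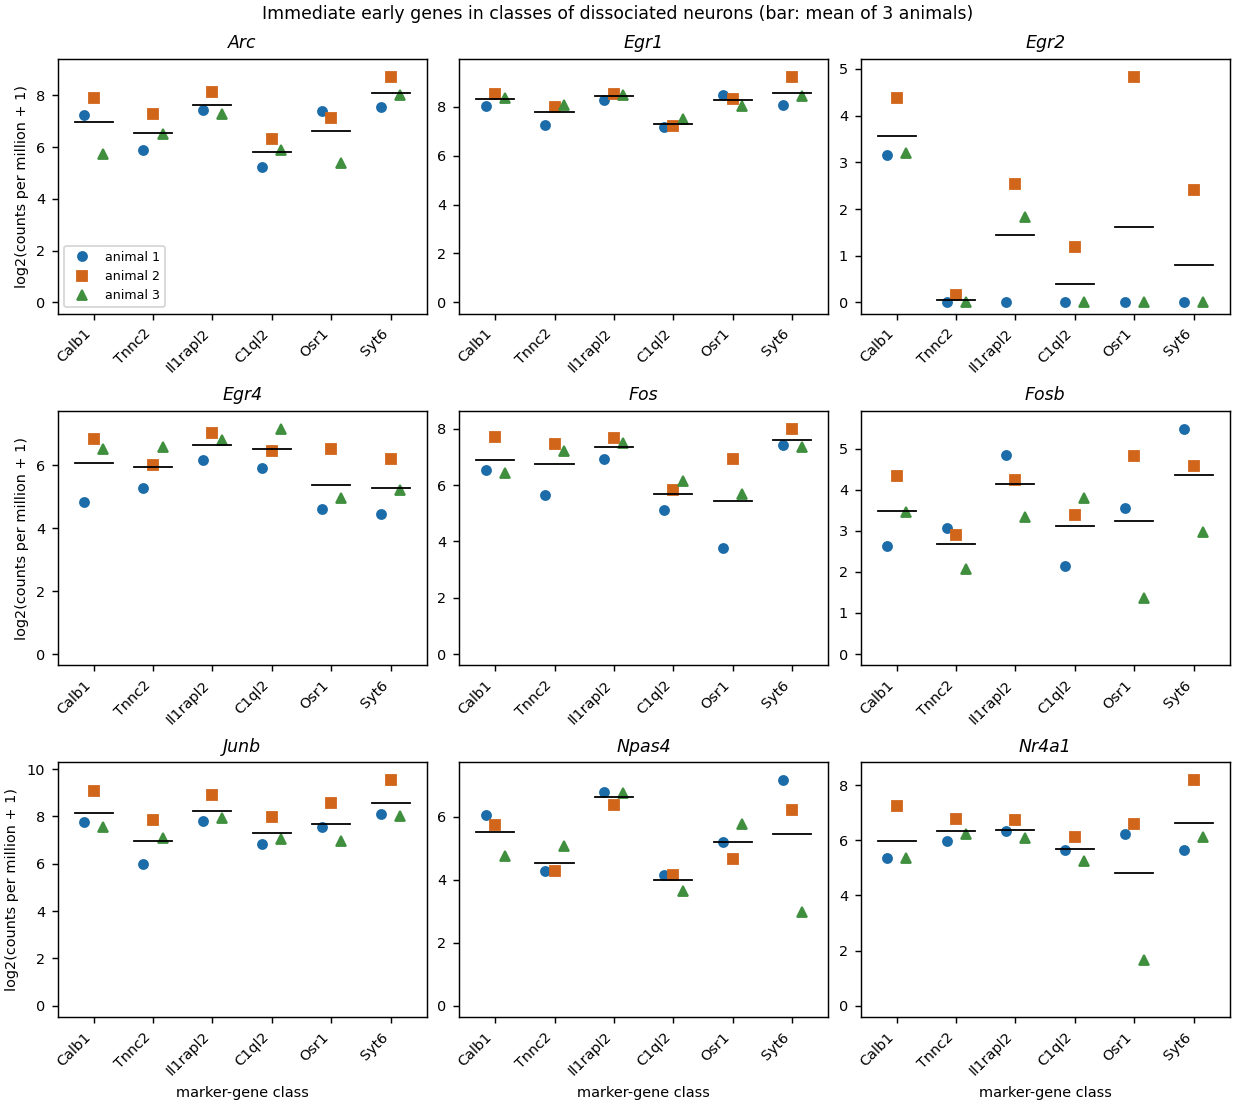
Level of each immediate early gene on the log2(CPM + 1) scale (vertical axes) in 6 marker-gene classes (horizontal axes), with 1 point per animal and a bar at the mean of the 3 log2 values. Egr1 is low in the C1ql2 class in all 3 animals, and Egr2 is at or near 0 in Tnnc2 while all 3 animals show it in Calb1.

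Among the AP-1 genes, Junb, which dimerises with Fos proteins, was called over the 4 classes. Its level in the Calb1 class was 219 CPM in animal 1, 531 in animal 2 and 184 in animal 3, and in Tnnc2 it was 62.1, 228 and 135. Calb1 thus lay above Tnnc2 within each animal, although the range of one class overlapped that of the other across animals. In the fit of 4 classes Junb was higher in Calb1 than in the mean of the others (log2 fold change 0.79, SE 0.18, adjusted p = 0.0247, higher in 3 of 3 animals) and lower in Tnnc2 (-0.68, SE 0.20, adjusted p = 0.0462). In these directions 3.99% and 5.15% of all genes were called, with Junb and Egr2 the 2 of the 9 in each. In Osr1, where 10.3% of genes were called, none of the 9 was, and 2 had an unadjusted p under 0.05. Both Junb calls were lost without animal 1 (0.70 in Calb1 and -0.38 in Tnnc2, adjusted p = 0.101 and 0.305) and without animal 2 (0.72 and -0.66, adjusted p = 0.269 and 0.279). With no replicate block the folds were 0.81 and -0.66 (adjusted p = 0.305 and 0.412). The Calb1 call was also lost when Il1rapl2 and Syt6 joined the comparison (0.36, adjusted p = 0.310) and when cells were classed with a margin of 0 (0.36, adjusted p = 0.260). With RLE size factors and with no filter on low counts the Tnnc2 value was -0.67 and -0.65 (adjusted p = 0.0533 and 0.0570). With 6 classes Junb was again lower in Tnnc2 (-0.92, SE 0.18, adjusted p = 0.00243) and was higher in Syt6 (0.85, SE 0.16, adjusted p = 0.00319).

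Fos, the founding member of this family, reached 170, 255 and 163 CPM in the Syt6 class. In C1ql2 it was 33.6, 55.8 and 70.1 CPM, and in Osr1 12.6, 120 and 50.2 CPM. Every Syt6 value lay above every C1ql2 and Osr1 value. With 4 classes Fos missed the threshold (adjusted p = 0.0602). With 6 classes it was called (adjusted p = 0.00579), higher in Syt6 (log2 fold change 1.04, SE 0.28, adjusted p = 0.0258) and lower in C1ql2 (-1.17, SE 0.31, adjusted p = 0.0346) and in Osr1 (-1.11, SE 0.32, adjusted p = 0.0481). Fosb, whose product pairs with Jun proteins as Fos does, was low throughout, with class means between 5.70 and 24.5 CPM and an adjusted p of 0.864 over 4 classes and 0.653 over 6.

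Egr1, also known as Zif268, was low in the C1ql2 class. Its level there was 142, 145 and 178 CPM in animals 1 to 3. In Calb1 it was 260, 367 and 322 CPM, and in Osr1 350, 316 and 257 CPM. The C1ql2 values lay below those of Calb1, Osr1, Il1rapl2 and Syt6 without overlap. Tnnc2 (150, 252 and 269 CPM) reached into their range, and the small Moxd1 class lay in or below it, with 132 CPM from 4 cells of animal 1 and 175 CPM from 7 cells of animal 2. The log2 fold change of C1ql2 against the mean of the other 3 classes was -0.84 (SE 0.16, adjusted p = 0.00812), a direction in which 2.72% of genes were called. Leaving out animal 2 ended this call (-0.73, adjusted p = 0.136). In the fit of 6 classes the value was -0.99 (SE 0.18, adjusted p = 0.00253), and Egr1 was higher in Syt6 (0.58, SE 0.17, adjusted p = 0.0399), where it was 270, 588 and 342 CPM.

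Egr2, a close relative known from hindbrain patterning and Schwann cell myelination, was called higher in Calb1 and lower in Tnnc2. The Calb1 class held 12, 180 and 169 counts in the 3 animals (7.86, 19.7 and 8.14 CPM). Tnnc2 held 0, 1 and 0 counts (0.12 CPM in animal 2) and C1ql2 0, 14 and 0 (1.28 CPM). Osr1 held 67 counts in the 16 cells of animal 2 and 0 in the others, and with 27.3 CPM it was above Calb1 in animal 2. Il1rapl2 held 0, 17 and 16 counts (4.79 and 2.53 CPM in animals 2 and 3). The gene differed over the 4 classes (adjusted p = 0.00474), in Calb1 against the others (adjusted p = 0.00354) and in Tnnc2 against the others (adjusted p = 0.0385), and no fold is given since several sums held no count. After thinning, and with the cells of all animals pooled, 10% of 200 Calb1 cells had a count, 0.694% of 144 C1ql2 cells and 0 of 105 Tnnc2 cells. The last allows a share of up to 2.86% by counting error alone, which leaves out the spread between animals. The difference over classes was lost without animal 1 and without animal 2 (adjusted p = 0.0713 and 0.104), and the Calb1 call without any 1 animal (adjusted p from 0.0556 to 0.0679) and with no replicate block (0.0529). The Tnnc2 call was lost without animal 1, 2 or 3 (adjusted p = 0.119, 1 and 0.0923), with no replicate block (0.0755), with thinned cells (0.119), with Leiden clusters (1) and with 6 classes (0.0527).

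Egr4 differed from Egr1 in the order of the C1ql2 and Syt6 classes. Its levels in C1ql2 were 59.2, 86.3 and 141 CPM, beside 27.5, 113 and 90.2 in Calb1 and 20.6, 71.2 and 35.8 in Syt6. C1ql2 thus lay above Syt6 in each animal, whereas for Arc, Egr1 and Fos it lay below. The gene passed neither test over classes (adjusted p = 0.291 for 4 classes and 0.0868 for 6), and its log2 fold change in C1ql2 against the other 3 classes was 0.70 with a 95% interval from 0.11 to 1.29 (adjusted p = 0.238).

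Npas4, a factor induced by calcium entry and tied to the making of inhibitory synapses, was highest on average in Il1rapl2, with 109, 81.7 and 106 CPM. C1ql2 had 16.8, 16.6 and 11.5 CPM, below each value of the Tnnc2 (18.4, 18.4 and 32.8), Calb1, Osr1 and Il1rapl2 classes. Syt6 spanned 6.84 to 141 CPM. Over 4 classes the adjusted p was 0.0750 and over 6 it was 0.0481. Nr4a1 gave no difference that passed (adjusted p = 0.708 and 0.623), and its Osr1 values ran from 2.18 to 95.5 CPM.

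Arc was 185, 415 and 259 CPM in Syt6, 171, 278 and 156 CPM in Il1rapl2, and 37.0, 77.4 and 58.6 CPM in C1ql2. Both of the first 2 classes lay above C1ql2 in all 3 animals without overlap. Among 4 classes Arc was not called (adjusted p = 0.316). Among 6 it was (adjusted p = 0.00669), with log2 fold changes of 1.35 for Syt6 (SE 0.29, adjusted p = 0.00666) and -1.38 for C1ql2 (SE 0.34, adjusted p = 0.0236). After thinning 89.3% of 28 Syt6 cells and 45.8% of 144 C1ql2 cells had an Arc count.

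Counted over the set in the fit of 6 classes, the one added after the values were seen, 4 of 9 genes were called higher in Syt6, where 3.64% of genes were, and 3 of 9 lower in C1ql2, where 1.62% were. In the same fit Calb1, Osr1 and Tnnc2 had 1 called gene each, Egr2 higher in Calb1 (3.43% of genes were), Fos lower in Osr1 (2.44%) and Junb lower in Tnnc2 (3.72%). With 4 classes the counts were 1 in C1ql2, 2 in Calb1, 0 in Osr1 and 2 in Tnnc2. The median log2 fold change of the 9 was 0.79 in Syt6 (-0.10 over all genes) and -0.99 in C1ql2 (0.11 over all genes). Il1rapl2 had 9 of 9 fold changes above 0 (median 0.74) and 0 called by edgeR, against 1.96% of genes, with 6 at an unadjusted p under 0.05. When the 6 classes are put in order of level, neighbours overlapped in range for every gene of the 9 with 1 exception, Npas4 in Tnnc2 over C1ql2. No share over all genes stands beside this overlap or beside the ranges of classes compared above, so both describe the 9 alone. Other measures also differed between these classes: summed oligodendrocyte markers were 352, 165 and 138 CPM in C1ql2 and 33.4, 79.2 and 32.1 CPM in Syt6, and the median counts per cell were 136376 and 113143. Dissection level differed as well: 109 of 152 C1ql2 cells and 3 of 35 Syt6 cells were posterior. The class fits held no term for level, so class and level were not separated in them. The part of these measures and of level in the class differences was not tested.

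Other activity genes were taken from lists of names. Of 18 other early genes tested over 4 classes, 7 were called (16.8% of all genes were), led by Gadd45g, a stress and DNA-repair regulator, and Dusp1, a phosphatase of MAP kinases. Dusp1 was 88.4, 201 and 156 CPM in Tnnc2 and 38.0, 127 and 35.6 CPM in Calb1, the opposite order to Junb. Gadd45g was 77.3, 98.7 and 60.0 CPM in Calb1 and 21.6, 25.9 and 19.0 CPM in Tnnc2.

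Late activity genes, which are induced after the early factors, had 14 of 18 members called over the 4 classes, where 16.8% of all genes were. The difference between the lists was not tested. Nptx2, a secreted pentraxin of excitatory synapses, was 244, 228 and 131 CPM in Osr1 and 0, 0.12 and 0 CPM in Tnnc2. Bdnf, the neurotrophin, was 736, 989 and 713 CPM in Osr1, against 267, 234 and 343 CPM in C1ql2. Scg2, a secretory granule protein, was 1297, 862 and 938 CPM in Osr1 and at most 190 CPM in C1ql2. Osr1 was thus the highest class for these 3 late genes, while Fos there lay among the lowest. Of 15 upstream regulators 7 were called, with Mef2c, a factor of activity-dependent transcription, at 2502 ± 51.7 CPM in Calb1 and 437 ± 55.7 CPM in Syt6 (SD, n = 3). Of 9 heat shock and stress genes tested 2 were called, Hsph1 and Hsp90aa1, and the summed level of the list lay between 1586 and 2144 CPM in every class and animal.

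Posterior cells were compared with anterior ones because the levels were dissected apart. Arc was 129, 268 and 84.9 CPM at the anterior level of animals 1 to 3 and 43.1, 56.6 and 59.1 CPM at the posterior level. Npas4 was 52.3, 52.5 and 42.8 CPM at the anterior and 25.5, 22.0 and 22.6 CPM at the posterior level. For both genes every posterior value lay below every anterior value. No share over all genes stands beside this separation, so it describes these genes alone. Fos was 89.5, 205 and 136 CPM at the anterior level and 47.9, 94.9 and 75.4 CPM at the posterior level, lower in 3 of 3 animals with overlapping ranges.

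**Figure D2:**
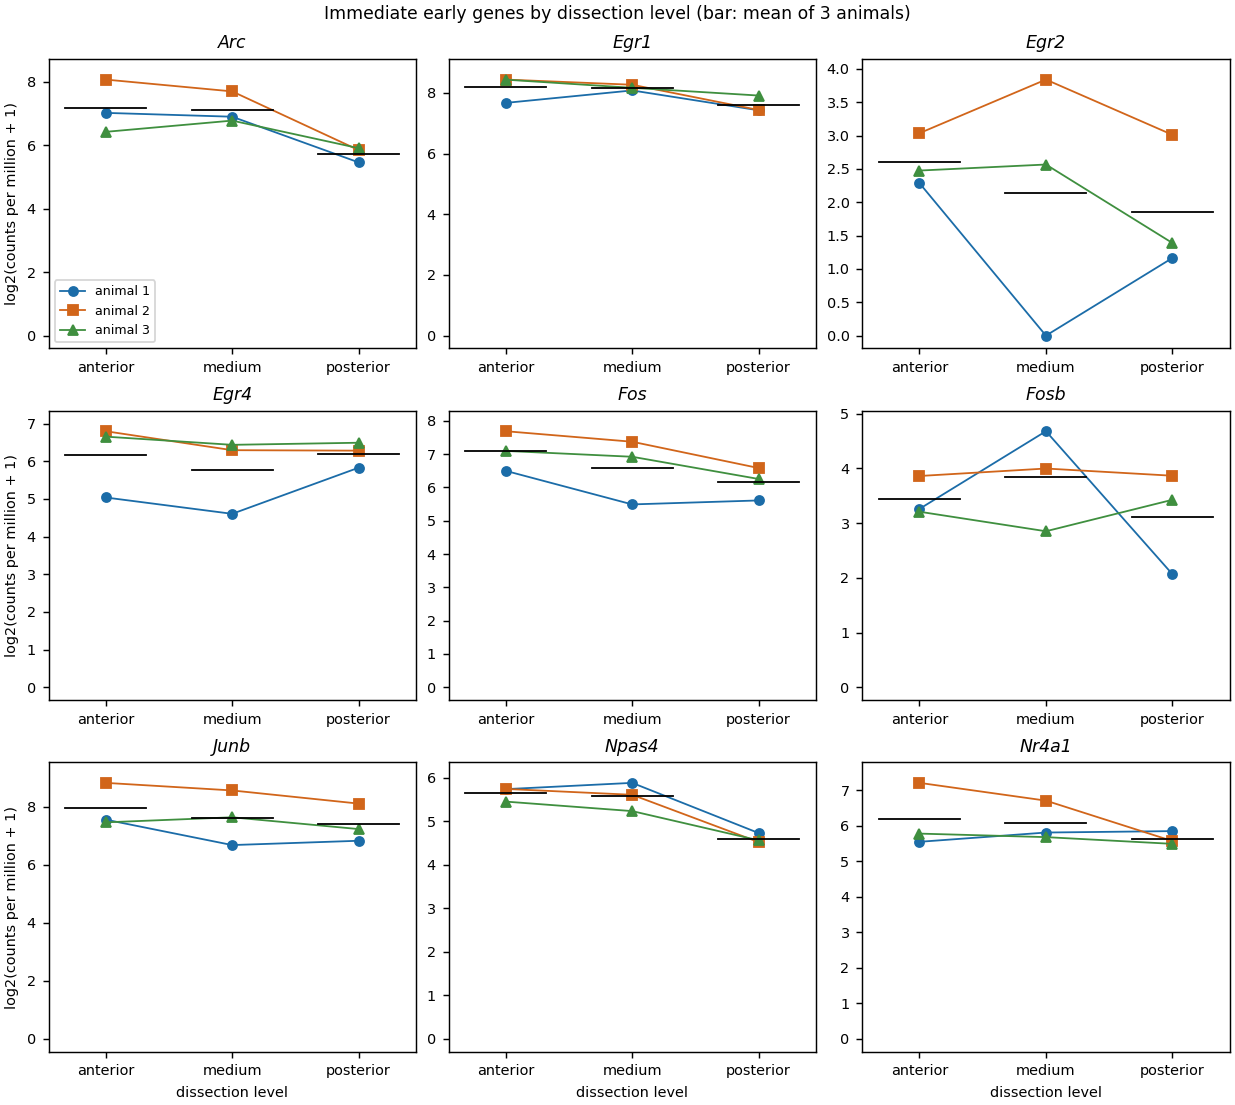
Level of each immediate early gene on the log2(CPM + 1) scale (vertical axes) at the anterior, medium and posterior dissection level (horizontal axes), with a line per animal and a bar at the mean of the 3 log2 values. Lines of Arc, Fos and Npas4 end lower at the posterior level than they start in every animal, and those of Egr4 do not share a direction.

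In the fit across all 14029 genes, 12 genes (0.0855%) were called between posterior and anterior and none of the 9 immediate early genes was among them. The log2 fold changes were -1.45 for Arc (SE 0.28, adjusted p = 0.202), -1.08 for Npas4 (SE 0.21, adjusted p = 0.227) and -0.96 for Fos (SE 0.21, adjusted p = 0.331). Of the 9, 5 had an unadjusted p under 0.05, as had 826 of all genes. DESeq2 called 137 genes (0.943% of those it gave an adjusted p), and 3 of the 9, Arc (adjusted p = 6.53e-05), Npas4 (0.00119) and Fos (0.00262). The interval of Egr4, from -0.50 to 0.57, holds 0, and the posterior level was higher in 1 of 3 animals. Summed oligodendrocyte markers were 461, 156 and 185 CPM at the anterior and 126, 143 and 98.4 CPM at the posterior level, and their part in the differences was not tested.

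Levels also differed in their classes: 109 of 152 C1ql2 cells were posterior, and 3 of 35 Syt6 cells were. Without the C1ql2 class, a choice made after the data were seen, the log2 fold changes were -1.0 for Arc, -0.68 for Npas4 and -0.71 for Fos, with adjusted p-values of 1, in a fit that called 0.0146% of all genes (0.00728% between medium and anterior). With the class as a further term of the model, where 0.00734% of genes were called, Arc stood at -1.58 (SE 0.30, adjusted p = 0.0549), Npas4 at -1.05 (SE 0.65, adjusted p = 1.0) and Fos at -0.90 (SE 0.37, adjusted p = 0.954). Egr4, at 0.04 without that term, turned to -0.82 with it (SE 0.33, adjusted p = 0.942). The fit with that term used sums of at least 5 cells per animal, level and class. Classes of 1 animal and level thus entered as separate units, and its p-values rest on more units than animals. Within the C1ql2 class Arc was 98.3, 130 and 29.4 CPM in anterior cells and 22.5, 16.7 and 51.6 CPM in posterior cells. Medium cells of this class had 136, 151 and 115 CPM, from 6, 12 and 6 cells. Anterior cells numbered 2, 13 and 4, too few to test either level against them.

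Medium cells were closer to anterior ones. A single gene of 14029 (0.00713%) was called, and it was not an immediate early gene. The median log2 fold change of the 9 was -0.21, beside -0.04 over all genes, and Fos alone had an unadjusted p under 0.05 (log2 fold change -0.49, SE 0.21, adjusted p = 0.932). Within the Calb1 class, and within the Tnnc2 class, edgeR called none of the genes tested at the medium against the anterior level, while 182 and 266 genes had an unadjusted p under 0.05. Of the immediate early genes these were 0 of 9 in Calb1 and 1 of 8 in Tnnc2. These sums held at least 5 cells, and posterior cells of both classes were fewer than that in 1 animal. Of the other early, late, regulator and stress genes none was called at either level, with list medians from -0.29 to 0.09.

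Levels also differed between animals. Over all cells, Junb was 136, 385 and 172 CPM, Arc 82.5, 198 and 82.9 CPM, and Nr4a1 53.0, 110 and 49.7 CPM in animals 1, 2 and 3. Animal 2 was the highest for all 3 genes, and its 4 samples lay between 274 and 456 CPM of Junb, above each sample of the other animals. Npas4 differed least, at 39.1, 43.5 and 34.2 CPM. Each animal is 1 mouse with its own samples, so animal and processing cannot be told apart and no test was made.

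From cell to cell the 9 genes moved together. Spearman correlations were taken over the 26 to 79 thinned cells of a sample and averaged over samples, as a description with no p. All 36 pairs had a mean above 0, from 0.085 to 0.441, with a median of 0.253, and the medians of single samples lay between 0.130 and 0.395. No value over other pairs of genes stands beside these. Arc with Fos (0.44), Fos with Junb (0.43) and Arc with Junb (0.41) were highest and above 0 in 11 of 11 samples. Fosb (median of its pairs 0.121) and Egr2 (0.164) joined least, and both had the fewest counts. Pairs with Egr2 had a value in 9 samples and the other pairs in 11. Taking deviations from the class mean left the median at 0.248, and without animal 2 it was 0.222.

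**Figure D3:**
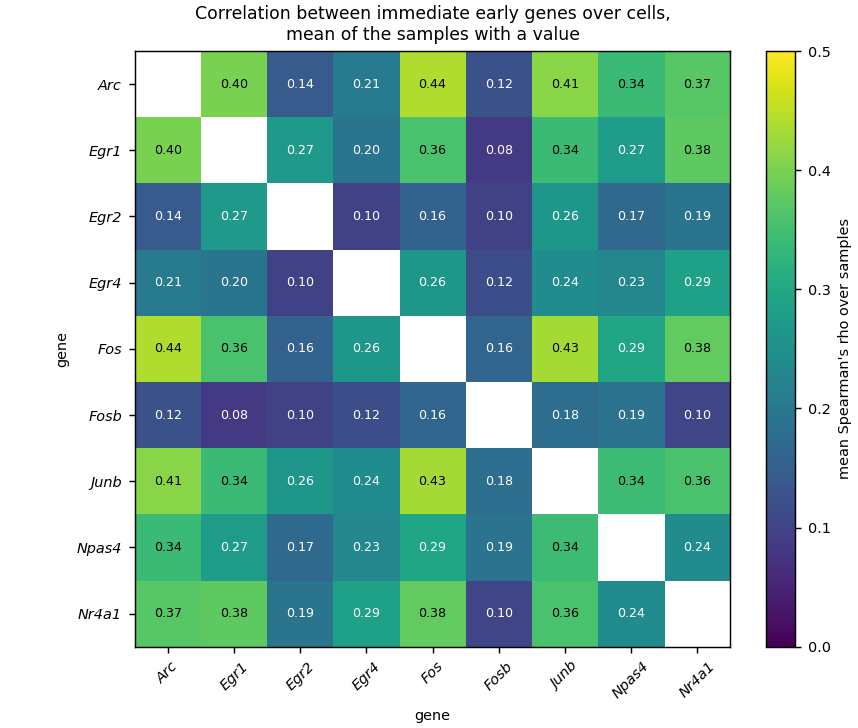
Mean Spearman's rho over samples (colour and number) for each pair of immediate early genes (both axes), over cells thinned to equal depth. Arc, Fos, Junb, Egr1 and Nr4a1 form the brighter block, and the rows of Egr2 and Fosb are darkest.

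Joint detection gave the same picture in shares of cells. Among the 338 thinned cells with a Fos count, 82.8% also had an Arc count, against 49.2% of the 366 cells without Fos. The difference was in the same direction in every animal, with 65.7% against 55.1%, 88.0% against 50.0% and 81.0% against 46.2%. Of cells with an Npas4 count 62.4% had Fos, and of those without it 41.4% had.

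The genes outside the set that followed its summed level most closely over cells were Ier2 (mean rho 0.433), Dusp1 (0.384), Dusp6 (0.317), Bdnf (0.30), Btg2 (0.278), Snap25 (0.258), Gadd45g (0.25), Cdkn1a (0.237), Car10 (0.233) and Malat1 (0.223), out of 9617 genes counted in at least 10% of cells. Ier2, Dusp1, Bdnf and Gadd45g were above 0 in 11 of 11 samples. Of the 16 other early genes measured here 8 were among the first 100, of 12 late genes 4, and of 15 upstream regulators and 7 stress genes none. The list medians were 0.117, 0.072, -0.00036 and 0.037, and that of all genes was -0.0025. Snap25 and Malat1 were counted in 100% of cells, and their values were 0.159 and 0.132 over deviations from the class mean.

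In the sections, spots were grouped by markers into 9 groups, named here by a leading gene, with 100 to 253 spots each and 528 of 1973 spots left unassigned (193 spots lay within 0.05 of the limit of 0.25). Fewer cells of a type and less RNA per cell cannot be told apart in a spot. Levels differed between groups for all 9 immediate early genes (edgeR F test on sums per group, with the section as a block, n = 2 sections), beside 18.5% of 9586 genes. Adjusted p-values ran from 3.59e-22 for Arc to 0.00117 for Fosb.

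**Figure D4:**
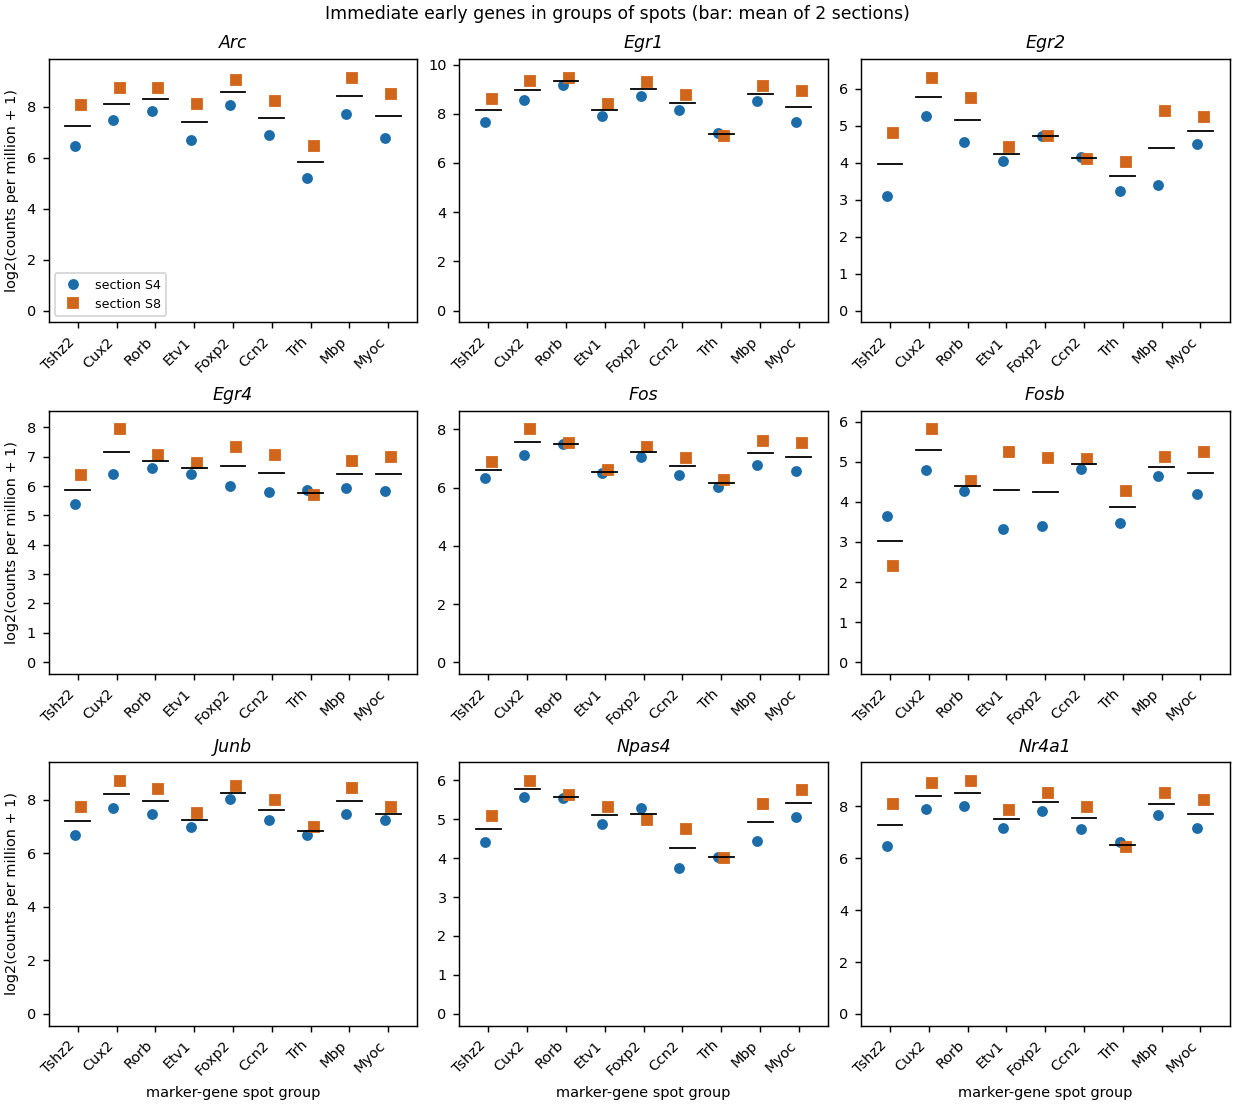
Level of each immediate early gene on the log2(CPM + 1) scale (vertical axes) in 9 marker-gene groups of spots (horizontal axes), with 1 point per section and a bar at the mean of both log2 values. The Trh group is low for most genes in both sections, and section S8 lies above S4 in most groups.

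The Cux2 group, with upper-layer markers, carried all 9 genes at a higher level than the mean of the other groups, a direction in which 4.91% of genes were called. Egr2 stood out there with 37.7 CPM in S4 and 77.7 in S8 (log2 fold change 1.36, SE 0.20, adjusted p = 3.58e-07). Fosb was 26.6 and 55.1 CPM (0.97, SE 0.23, adjusted p = 0.00267). Npas4, at 46.6 and 62.1 CPM, was highest in this group in both sections (0.86, SE 0.18, adjusted p = 0.000435). The others had log2 fold changes from 0.46 for Arc to 0.81 for Egr4.

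The Rorb group had 4 of 9 called higher (1.99% of genes), namely Egr1, Nr4a1, Arc and Fos. Egr1 was 582 CPM in S4 and 705 in S8, the highest of the 9 groups in both (log2 fold change 0.96, SE 0.10, adjusted p = 6.44e-12). Nr4a1 was 261 and 504 CPM, again the highest group in both sections (0.85, SE 0.11, adjusted p = 9.11e-08). Fosb had a log2 fold change near 0 here, with 18.4 and 21.8 CPM.

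The Foxp2 group, which shares Foxp2 and Syt6 with the Syt6 class of cells, also had 4 of 9 called higher (1.3% of genes): Arc, Junb, Egr1 and Nr4a1. Arc was 265 CPM in S4 and 535 in S8 (log2 fold change 0.97, SE 0.11, adjusted p = 1.2e-10). Junb was 258 and 362 CPM (0.69, SE 0.11, adjusted p = 1.43e-05). Of the 4 genes called in the Syt6 class, Arc, Egr1 and Junb were called in this group as well, and Fos, at 131 and 166 CPM, was not. This overlap was not particular to the Foxp2 group. All 4 of these genes were called higher in the Cux2 group, and Arc, Egr1 and Fos in the Rorb group. In the Mbp group, led by myelin genes, Arc (207 and 563 CPM, log2 fold change 0.85, SE 0.10, adjusted p = 3.62e-09) and Egr1 (0.37, SE 0.11, adjusted p = 0.0342) were called higher.

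**Figure D5:**
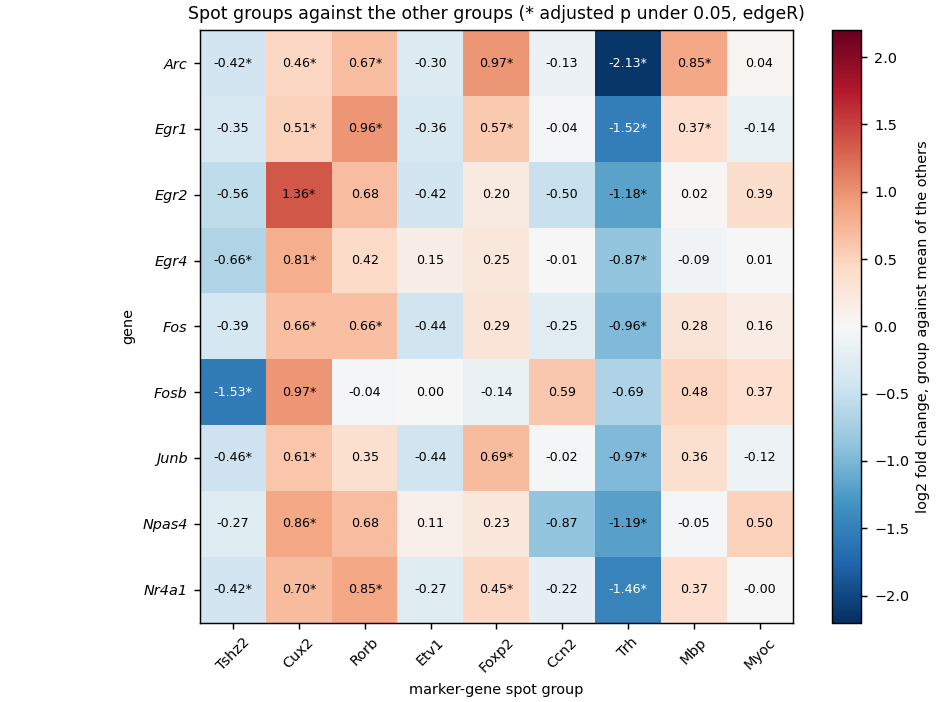
Log2 fold change (colour and number) of each immediate early gene (vertical axis) in each group of spots against the mean of the other groups (horizontal axis), with a star where the adjusted p is under 0.05. The Cux2 column is starred and positive for 9 genes, and the Trh column is starred and negative for 8.

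The Trh group had 8 of 9 called lower, where 5.58% of genes were. Arc was 35.6 CPM in S4 and 87.2 in S8 (log2 fold change -2.13, SE 0.16, adjusted p = 1.11e-18). Egr1 was 148 and 138 CPM (-1.52, SE 0.14, adjusted p = 4.41e-15), and Nr4a1 96.8 and 85.5 CPM (-1.46, SE 0.16, adjusted p = 8.5e-12). Fosb was the exception, at 10.2 and 18.4 CPM. Each section alone gave log2 fold changes in Trh of -1.87 and -1.08 for Egr1 and -1.96 and -0.80 for Nr4a1. Egr4 had -1.37 and -0.17, and Arc -2.11 and -2.04 (lower value first). For Egr1, Nr4a1 and Egr4 the sections lay further apart than the SE of the joint fit. In the Tshz2 group 5 of 9 were called lower (1.46% of genes), namely Arc, Egr4, Fosb, Junb and Nr4a1. Fosb was 11.5 and 4.29 CPM there (-1.53, SE 0.39, adjusted p = 0.0107). Each section alone, the lower value first, gave Nr4a1 -0.96 and -0.095, Fosb -2.73 and -0.50, and Junb -0.67 and -0.30. Arc was -0.61 and -0.32 and Egr4 -0.73 and -0.60, so the sizes differed between sections, most of all for Nr4a1 and Fosb. No immediate early gene was called by edgeR in the Etv1, Ccn2 or Myoc groups, against 0.376%, 1.93% and 1.85% of genes, and 5, 1 and 0 had an unadjusted p under 0.05. The Etv1 group is scored on Bcl11b, as the C1ql2 class is, and had 102 and 275 CPM of Arc and 242 and 333 CPM of Egr1 in S4 and S8.

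Between sections the levels were not alike. S8 was higher than S4 for each of the 9 genes over all spots, from 1.30 times for Npas4 (41.5 against 32.0 CPM) to 2.28 times for Arc (342 against 150 CPM). Arc, Fos and Junb were higher in S8 in 9 of 9 groups, and Egr2 and Npas4 in 7 of 9. With 1 section on each side this has no replicate check. The Trh group was the lowest of the 9 in both sections for Arc, Egr1, Fos and Junb, although Junb in S4 was 102 CPM in both Trh and Tshz2. A fit with no block for the section, which leaves this difference in the error, called 3 of 9 genes between groups, Egr1, Fos and Npas4, and among the group contrasts it kept Egr2 and Npas4 in Cux2 and Arc, Egr1 and Nr4a1 in Trh. DESeq2 called 8 of 9 between groups, and none of the 5 Tshz2 contrasts (adjusted p from 0.115 to 0.205 for 4 genes and none given for Fosb). It also lost Fosb and Npas4 in Cux2, Nr4a1 in Foxp2, Egr1 in Mbp, and Egr2, Egr4 and Npas4 in Trh.

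Among other early genes 11 of 18 tested differed between spot groups, where 18.5% of all genes did. In the Trh group 8 were lower, where 5.58% of all genes were. Ier2 was 13.6 and 13.4 CPM there and 73.3 and 81.6 CPM in the Foxp2 group. Nr4a2, a relative of Nr4a1, had another pattern, with 221 and 192 CPM in the Ccn2 group and 31.1 and 55.1 CPM in Cux2. Of 14 late genes 8 differed, led by Homer1, a postsynaptic scaffold (281 and 250 CPM in Cux2, 136 and 97.3 in Trh), and Nptx2 (103 and 100 CPM in Cux2, 28.9 and 36.9 in Trh). Of 14 regulators 5 were called and of 8 stress genes 4, beside the same 18.5% of all genes. No stress gene was called in the Trh group. Summed oligodendrocyte markers were 662 and 1189 CPM in the Trh group, 934 and 899 in Cux2, 2651 and 2809 in Foxp2, and 5201 and 6723 in Mbp. Spots held summed GABAergic markers between 432 and 745 CPM and astrocyte markers between 324 and 856 CPM in all groups, and their part in the differences was not tested.

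Over spots of a section the 9 genes also moved together. All 36 pairs had a correlation above 0 in both sections, with a median of 0.138 in S4 and 0.296 in S8. No value over other pairs of genes stands beside these, and the part of counts per spot in them was not tested. The highest pair was Egr1 with Nr4a1 in S4 (0.427) and Arc with Egr1 in S8 (0.628). Deviations from the group mean gave medians of 0.114 and 0.258. Spots near each other can share cells and RNA, so these values describe the sections only.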

How the data were processed

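As deposited, each table lists raw counts for every gene in a cell or a spot, whole numbers that show no normalization. The submitters' processing notes name Seurat and the build NCBIM37 for cells, and Space Ranger and mm10 for sections as well. Whether cell counts are reads or molecules, the counter and the use of strand are not given in the sources used here, so genes that share or overlap reads are uncertain, and intervals and floors (3 counts) cover counting error only. Coordinates are those of the RefSeq promoter table alone. Genes without a row were not analysed here. Samples total 2306470 to 15974543 counts, and sections 8436518 and 6389042. No doublet caller was run.

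Each cell took the class with the highest mean of 4 markers, as log2(counts per 10000 + 1) over the gene's 99th percentile, where it led by 0.1. Spots took the group with the highest mean of markers standardised within a section, where it led by 0.25. Sums per animal or section were fitted in R 4.3.3 by the quasi-likelihood F test of edgeR 4.0.16, after its default expression filter and TMM scaling, with Benjamini-Hochberg adjustment and a threshold of 0.05, with animal or section as a block and a fold against the mean of the other groups. SE is the log2 fold change over the root of F, and 95% intervals are normal approximations from it. Python 3.11.15 and scanpy 1.11.5 did the rest. DESeq2 1.42.0 was an alternative, as were other scalings, filters, margins, clusters, depths and left-out animals. The fits were tested on simulated data, with 100 genes changed at each size in 1 contrast per fit. A log2 change of 1 was recovered for 41% (classes), 36% (posterior against anterior) and 42% (spot groups). A log2 change of 2 was recovered for 70%, 91% and 82%. A gene that was not called can thus still differ. Samples of 1 animal are not independent, so the animal is the replicate. Named genes were all 9 members, the 10 most alike over cells, and up to 5 per list by adjusted p. The members, markers and lists were chosen with earlier results of these data known.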

Additional observations from a re-analysis of the deposited data

Results flagged for a closer look

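In samples of 1 animal, the lowest or highest value was compared with its neighbours by Dixon's test in 18 groups of 4 samples, and chance alone flags about 1 in 20. Fosb stood apart in both: it was 7.22 CPM in sample 12 of animal 2, where the other 3 samples lay between 15.3 and 16.3, and 4.76 CPM in sample 18 of animal 3, where the others lay between 9.14 and 9.73.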

How the results depend on the processing

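Egr2 and Fosb had few counts, and 3 animals and 2 sections limit every test. The 5 class and 32 spot group contrasts that were called kept their direction under all alternatives that gave a value, each section alone included. Their size could differ between sections. In Cux2, Egr4 was 0.41 and 1.16 in single sections, whereas Arc was 0.45 and 0.53. For classes 22 of 65 of these values missed the threshold, and for spot groups 42 of 287. The 287 include the values of single sections, which had no p and so could not miss it. Between classes, 2256 genes and 3 immediate early genes were called. DESeq2 gave 3391 and 5, sums per sample 3544 genes, and leaving out an animal 1043 to 1293 genes and 0 to 4 members (0 without animal 2, Egr1 alone without animal 1). Members called were 5 with cells thinned to 50000 counts and with a margin of 0.2, both of which drop the Osr1 class, 6 with Leiden clusters and, added after seeing the data, 6 with sums of at least 5 cells. Posterior against anterior, 12 genes became 137 (3 members) with DESeq2, 1 with no replicate block, 1 with the class as a term, 2 without C1ql2 cells (added after seeing the data), and 1 to 10 without 1 animal. Medium against anterior, 1 gene became 15 with DESeq2, 0 with the class as a term, and 1 to 2 without 1 animal. Between spot groups, 1771 genes became 731 with DESeq2, and 715 with 3 members in place of 9 with no replicate block for the section. No block linked cells to sections, whose numbers only share digits, and the cause of these changes was not tested. For cells, the fit with no replicate block called 3 members between classes (Egr1, Egr2, Npas4).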
